A study of Mus musculus with 2 samples.

Results

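The genes described here are 39 mouse genes of the vascular endothelium and the endocardium, chosen by name from a list, with all counts of a gene summed over its transcript models. All 39 had counts in both libraries, over models of every class, among 16269 annotated genes with a count in at least 1 library. The libraries are long-read RNA-seq of whole heart tissue from male B6CASTF1/J mice, the hybrid offspring of C57BL/6J and CAST/EiJ parents, at 14 days of age, with no treatment and no control group. Replicates 1 and 2 are labelled as separate tissue samples, each made with 2 µg of RNA, and the sample name mentions 3 males. The donor label and the library description are shared, so whether they came from separate animals cannot be told from the labels. P-values of the exact binomial and Fisher tests set the difference between these libraries against counting error alone. Such a difference may be technical. Replicate 1 held 1059016 counts on annotated genes and replicate 2 held 1064679.

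Endothelial cells line every blood vessel, and the endocardium is the endothelial layer that faces the chambers of the heart. Both seal their borders with VE-cadherin and claudin-5, sense flow, and read angiopoietin, BMP, Notch and sphingolipid signals through dedicated receptors. Transcription factors of the ETS, SOXF and KLF families set this programme, and the endocardium adds genes such as Nfatc1, Plvap, Tmem100, Cytl1 and Vwf.

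The 39 genes took 3413 counts in replicate 1 and 3416 in replicate 2. These are 0.322% (95% Clopper-Pearson interval 0.312 to 0.333) and 0.321% (0.31 to 0.332) of the counts on annotated genes, or 0.322% ± 0.001 (SD, n = 2 libraries). Intervals of this kind cover counting error only. The median gene of the list stood at 54.1 CPM (counts scaled to a library total of 1000000 on annotated genes), against 9.42 over all annotated genes detected. Each long read stands for 1 sequenced molecule, so CPM is not divided by transcript length. Levels of different genes below compare reads, and how well transcripts of different lengths were recovered was not tested. The 4 highest genes, Cav1, Cldn5, Eng and Esam, held 34.8% of the list's counts. CPM lay above 100 for 9 genes, between 20 and 100 for 25, and at or under 20 for 5, the latter being Dll4, Cytl1, Nfatc1, Notch1 and Erg. In tissue RNA, fewer endothelial cells and less RNA per cell cannot be told apart.

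**Figure D1:**
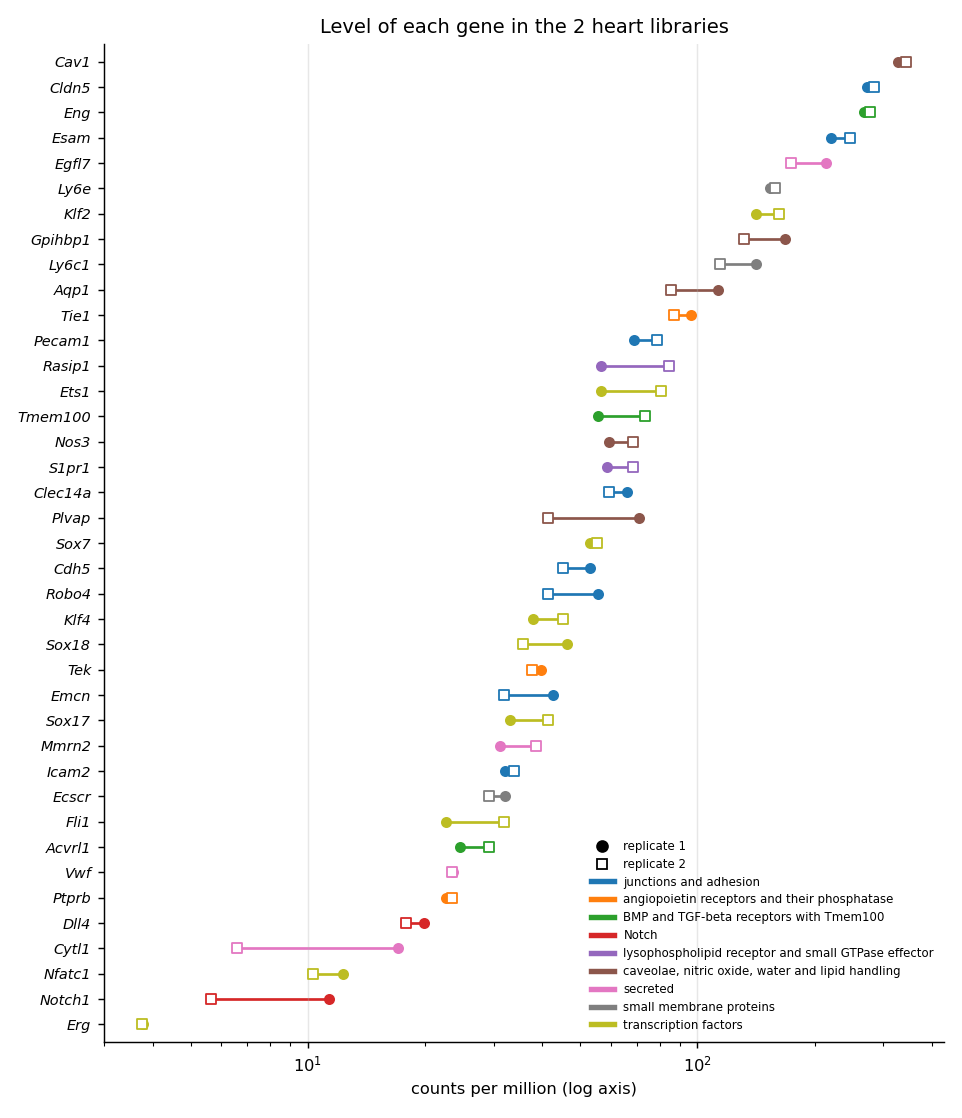
Level of each gene in CPM on a log axis, with replicate 1 as a filled circle, replicate 2 as an open square and the colour giving the gene's role. Cav1 is highest at 327 and 344 CPM and Erg lowest at 3.78 and 3.76 CPM, and the widest gap between the libraries on this axis is that of Cytl1.

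Each gene's 2 counts were set against the sizes of the libraries in the exact binomial test, and p-values were adjusted by Benjamini-Hochberg over the 10162 genes that had 10 or more counts in all. Of the 39 genes 38 were tested, since Erg had too few counts. None passed an adjusted p of 0.05 as higher in replicate 1 (1.65% of all tested genes did) or in replicate 2 (1.6% of all), together 0 of 38 beside 3.26% of all. At an unadjusted p under 0.05 there were 7 of 38, or 18.4%, beside 1247 of all genes, or 12.3%. edgeR's exact test with a common dispersion called 0 of the 38, with 1 at an unadjusted p under 0.05, and 22 genes, or 0.216%, of all. Its dispersion was estimated from the same 2 libraries taken as 1 group, so their own differences set the noise they are tested against. Few calls follow from that, and a call missing in edgeR's test cannot decide on the binomial one. Both tests compare 2 libraries, not conditions. The median log2 ratio of replicate 2 over replicate 1, on CPM plus 1, was 0.05 over the tested genes of the list and 0.08 over all tested genes, but -0.033 over the list with TMM scaling and -0.032 with DESeq2 size factors. By CPM 20 of the 39 genes were higher in replicate 2, and 7 tested genes changed sign under TMM.

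Genes of the cell border ranged from 33 to 279 CPM, and none passed the test. Cldn5, the tight junction claudin of endothelium (chr16:18776847-18778262), had 289 and 303 counts in replicates 1 and 2. Esam, an adhesion molecule of endothelial tight junctions (chr9:37528078-37538319), had 233 and 263. Pecam1, the CD31 antigen, had 73 and 84. Their log2 ratios were 0.06, 0.17 and 0.19, of which that of Cldn5 was -0.021 under TMM scaling and that of Pecam1 -0.17 with annotated transcripts alone (45 and 40 counts). Cdh5, the VE-cadherin of adherens junctions, had 56 and 48 counts. Clec14a, a C-type lectin of the endothelial surface, had 70 and 63. Robo4, a roundabout receptor that stabilises vessels, had 59 and 44. The last 3 were higher in replicate 1. Emcn, the sialomucin endomucin, had 45 and 34 counts, and Icam2, a ligand of leukocyte integrins, had 34 and 36. As a set the 8 border genes held 0.0816% ± 0.00076 (SD, n = 2) of the counts.

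The angiopoietin receptor Tek, also called Tie2, had 42 and 40 counts, and its partner Tie1 had 102 and 93. Tie1 thus stood at 91.8 ± 6.34 CPM and Tek at 38.6 ± 1.48 (SD, n = 2), with no overlap between their values. Ptprb, the phosphatase VE-PTP that acts on Tek, had 24 and 25 counts. Of 9 further genes of the angiopoietin pathway, 8 could be tested and 0 passed in either direction, with a median log2 ratio of 0.24. Their highest were the shared signalling genes Akt1, Grb2 and Shc1 at 673, 133 and 59.8 CPM.

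Endoglin, Eng, the co-receptor for BMP ligands in endothelium, had 283 and 295 counts (chr2:32646595-32682669). Acvrl1, the kinase receptor ALK1 that Eng assists, had 26 and 31 counts. Eng therefore stood at 272 ± 6.96 CPM and Acvrl1 at 26.8 ± 3.23 (SD, n = 2). Tmem100, a membrane protein induced through Acvrl1, had 59 and 78 counts. Among 23 further genes of the BMP and TGF-beta pathway, 22 were detected, 21 were tested and 0 passed in either direction, with a median log2 ratio of 0.25. Id3, a direct target of BMP signals, was the highest of them at 149 CPM, with 159 and 157 counts. Gdf2, the circulating ligand BMP9, had no count.

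Counts for the Notch pair were low. Dll4, the arterial Notch ligand, had 21 and 19 counts and Notch1 had 12 and 6. The gap for Notch1 is log2 -0.89, with an adjusted p of 0.663 in the exact binomial test. Its counts on incomplete matches to a reference transcript were 4 and 4. The other 8 and 2 counts were of the Genomic class, defined below, so the gap lies in that class. Within 16 further genes of the pathway, 13 were tested, 0 passed in either direction, and the median log2 ratio was -0.01. The Notch targets Nrarp and Hes1 had 66 and 43, and 53 and 47, counts. Notch4, an endothelial Notch receptor, had 37 and 39.

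S1pr1, the sphingosine 1-phosphate receptor that holds vessels stable, had 62 and 73 counts, and Rasip1, a Rap1 and Ras effector needed for vessel lumens, had 60 and 90. Rasip1 had the largest positive log2 ratio of the list, 0.57, at an unadjusted p of 0.0177 and an adjusted p of 0.239 in the exact binomial test. Rap1 and junction control genes outside the list gave 15 tested genes, of which 0 were higher in replicate 1 and 1 in replicate 2. That gene, Rapgef1, an exchange factor for Rap1, had 26 and 57 counts (log2 1.09, adjusted p = 0.0322), a call that edgeR's exact test did not make (adjusted p = 0.909). With the trend of log2 ratios on transcript length removed, Rapgef1 did not pass the binomial test either (adjusted p = 0.164).

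Cav1, the coat protein of caveolae, was the highest gene of the list, with 346 and 366 counts (chr6:17306335-17341452). Nos3, the endothelial nitric oxide synthase that Cav1 binds, had 63 and 73. Neither passed the test, and the log2 ratio of Cav1, 0.07, was -0.008 under TMM scaling. The water channel Aqp1 had 120 and 91 counts and Gpihbp1, which carries lipoprotein lipase to the capillary lumen, had 178 and 140. Plvap, which forms the diaphragms of fenestrae and caveolae, had 75 and 44. These last 3 were higher in replicate 1, with log2 ratios of -0.40, -0.35 and -0.76 and unadjusted p-values of 0.0457, 0.0329 and 0.00437 in the exact binomial test. Plvap had the smallest adjusted p of the list, 0.103 (ratio of CPM 0.584, interval 0.393 to 0.858). The 19 further shear stress and nitric oxide genes were all tested, with 0 higher in replicate 1 and 1 in replicate 2, the chaperone gene Hsp90ab1 (683 and 881 counts). Of 10 genes of the lipoprotein lipase axis, 8 were tested. Apoe (1032 and 732) and Fabp4 (343 and 234) passed as higher in replicate 1, and Lpl, the lipase itself (2574 and 2983), as higher in replicate 2. edgeR's exact test called none of these 4 genes. With the length trend removed, Lpl did not pass the binomial test (log2 0.05, adjusted p = 0.788), while Hsp90ab1, Apoe and Fabp4 did.

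Secreted and small membrane proteins ranged widely. Egfl7, an endothelial matrix protein (chr2:26580014-26593120), had 227 and 185 counts, Mmrn2, the multimerin of vessel matrix, 33 and 41, and Vwf, the platelet-binding factor of endothelial granules, 25 and 25. Cytl1, a small secreted protein, had 18 and 7. Cytl1 had the largest log2 ratio of the list in size, -1.25, at an adjusted p of 0.304 in the exact binomial test. Ly6e and Ly6c1, GPI-anchored proteins of the Ly6 family, had 163 and 169, and 150 and 122, counts. The near copy Ly6c2 had 0 counts in each library. Whether reads of Ly6c2 were counted for Ly6c1 cannot be told from these counts. Ecscr, an endothelial cell surface protein, had 34 and 31 counts.

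The transcription factors were led by Klf2, the flow-induced factor (chr8:72319033-72321656), with 150 and 173 counts, while its relative Klf4 had 40 and 48. Of the ETS factors Ets1 had 60 and 86 counts, Fli1 24 and 34, and Erg 4 and 4. Erg was thus barely above the 3-count floor of 2.83 and 2.82 CPM. All its counts, 4 and 4, lay on single-exon models of the Genomic class, which is defined below. The 3 SOXF genes Sox7, Sox18 and Sox17 had 56 and 59, 49 and 38, and 35 and 44 counts, and their CPM overlapped between Sox18 and Sox17. Nfatc1, which acts in endocardium of the valves, had 13 and 11. Ets1, Fli1, Klf2 and S1pr1 are also transcribed in lymphocytes, as are Notch1, Nfatc1 and Ly6c1. This is not a full list of such members. The first 4 were higher in replicate 2, as were 20 of the 39 members by CPM. Notch1 (12 and 6 counts), Nfatc1 (13 and 11) and Ly6c1 (150 and 122) were higher in replicate 1. None of these members passed the test. Ets1 had a log2 ratio of 0.50 and an adjusted p of 0.354 in the exact binomial test. A list of 14 lymphocyte and thymus genes summed to 6 and 103 counts, with 12 detected and Cd8a and Cd8b1 at 0 in replicate 1 and at 26 and 25 counts in replicate 2. The part of lymphocytes and thymus cells in the counts of any of these members was not tested.

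The 5 endocardial members fell on both sides. Their counts were 59 and 78 for Tmem100, 75 and 44 for Plvap, 25 and 25 for Vwf, 18 and 7 for Cytl1 and 13 and 11 for Nfatc1, with a median log2 ratio of -0.23. Summed, they were 0.0167% ± 0.0017 (SD, n = 2) of the counts on annotated genes. None of the 5 passed the test. A list of 10 endocardial genes, which includes these 5, summed to 233 and 206 counts. Of its 8 tested genes 0 passed in either direction, and the median log2 ratio was -0.17. Its other genes were Postn (28 and 26 counts), Foxc1 (7 and 11), Npr3 (7 and 3), Adgrg6 (1 and 1) and Hapln1 (no count). The libraries differed in their atrial genes at the same time: a list of 8 summed to 5359 and 1365 counts, or 0.506% and 0.128%, and 6 of its 7 tested genes, Nppa, Myl7, Myl4, Sln, Dkk3 and Stard10, were higher in replicate 1. Without Nppa, which dominates that sum, the sarcomere light chain Myl7 alone had 602 and 161 counts. The adipocyte list also leaned to replicate 1, with 545 and 343 counts, but 343 and 234 of them were of Fabp4, counted below among further endothelial genes too. Of its 6 tested genes 3 passed as higher in replicate 1, namely Fabp4, Cidea (120 and 70) and Ucp1 (32 and 2). Cidec (17 and 5), Cfd (23 and 23) and Adipoq (8 and 6) did not pass. The red cell list held 1.73% and 1.28% of counts, with 4 of 5 tested genes higher in replicate 1 and Alas2 (560 and 549) not past the threshold. Of the 5, 3 were higher in replicate 1 with the length trend removed, where Hbb-bt no longer passed. The macrophage list had 333 and 466 counts and the platelet list 35 and 29, while Vwf, which platelets also carry, had 25 in each library. The part of chamber or tissue make-up in Plvap, Cytl1, Aqp1 and Gpihbp1 was not tested.

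Of 50 such genes outside the list, 49 were detected and 43 tested. Car4, a capillary carbonic anhydrase (238 and 167 counts), and Fabp4 passed as higher in replicate 1, and Podxl, a sialomucin (36 and 71), and Lpl as higher in replicate 2. edgeR's exact test called 0 of these genes, and Lpl and Fabp4 are also made by cardiomyocytes and fat cells. With the length trend removed, Car4 and Fabp4 still passed the binomial test, and Podxl (adjusted p = 0.177) and Lpl did not. No gene passed in either direction among the 5 tested arterial, 5 venous, 4 lymphatic and 10 mural genes. The highest venous genes, Aplnr, Ephb4 and Nr2f2, stood at 109, 81 and 25 CPM. In the arterial list Nrp1 stood at 125 CPM, Gja4 at 28.7 and Gja5 at 16. Summed, the arterial list held 0.0201% of counts and the venous list 0.0245%. Lymphatic markers were low, with 14.1 CPM for Lyve1 and 6.59 CPM for Prox1.

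**Figure D2:**
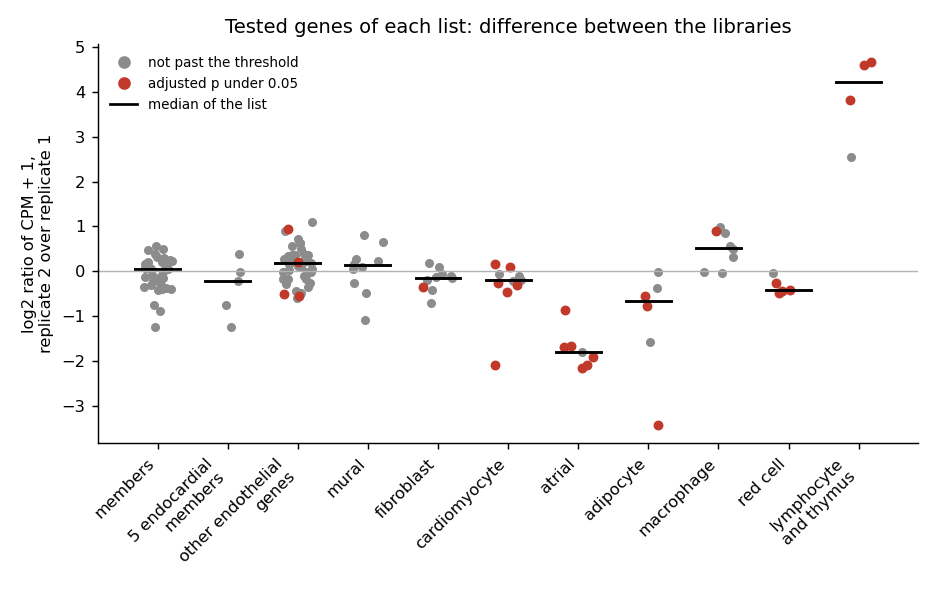
Each point is 1 tested gene, placed by its log2 ratio of replicate 2 over replicate 1 on CPM plus 1, with red points past an adjusted p of 0.05 in the exact binomial test and a black bar at the median of each list. The 38 tested members hold no red point and lie around a median of 0.05, while the atrial list has a median of -1.80 and the lymphocyte and thymus list one of 4.22.

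The long reads also show which transcript of each gene was made. A model is called annotated when all its splice junctions match 1 reference transcript, an incomplete match when it holds only a part of one, and new when it joins known splice sites in another way or uses a splice site not in the reference. Genomic is the class of models that match none of these. Annotated transcripts held 74.9% of the members' counts in replicate 1 and 76.3% in replicate 2, or 75.6% ± 0.97 (SD, n = 2). Over all annotated genes the shares were 80.7% and 80.4%. Incomplete matches held 15.5% and 14.7%, beside 8.59% and 8.42% over all genes. Models whose junctions match only the last ones of a transcript held 10.8% and 10.8%, beside 6.58% and 6.59%. This class does not by itself show a missing 5′ end, since 125 of its 367 counts in replicate 1 and 140 of 368 in replicate 2 began within 100 bases of an annotated start, among them all 41 of Klf2 and 100 of 104 of Ly6c1. None of the 64 such counts of Robo4 and none of the 46 of Tie1 did.

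This share varied widely by gene. Cytl1 had all its 25 counts on its annotated transcript, Cldn5 and Clec14a, whose annotated transcripts are a single exon, had 99.8% and 99.2%, Plvap had 94.1% and Cav1 92.3%. At the other end Vwf had 6% of its 50 counts on annotated transcripts, Ptprb 12.2% of 49, Acvrl1 19.3% of 57 and Robo4 26.2% of 103, and Notch1 and Erg had none. Genes with long transcripts had lower shares: across the 39 genes the share and the length of the longest annotated transcript had a Spearman rho of -0.58. Genes are not independent replicates, and all points share the same 2 libraries. Vwf has an annotated transcript of 8834 bases, yet its 47 other counts lay on models with a median of 1984 bases. One of the 50 counts, in replicate 2, was a full match to the 52-exon Vwf-203. For Ptprb the annotated transcript has 11911 bases and the models that are not annotated a median of 2347, with 32 counts on models of a single exon. Notch1, with 9488 bases, had 18 counts with a median of 2259. Acvrl1 differed from these: 84.2% of its counts began at an annotated start, and its models that are not annotated had a median of 2698 bases, against 1818 in its leading annotated transcript.

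**Figure D3:**
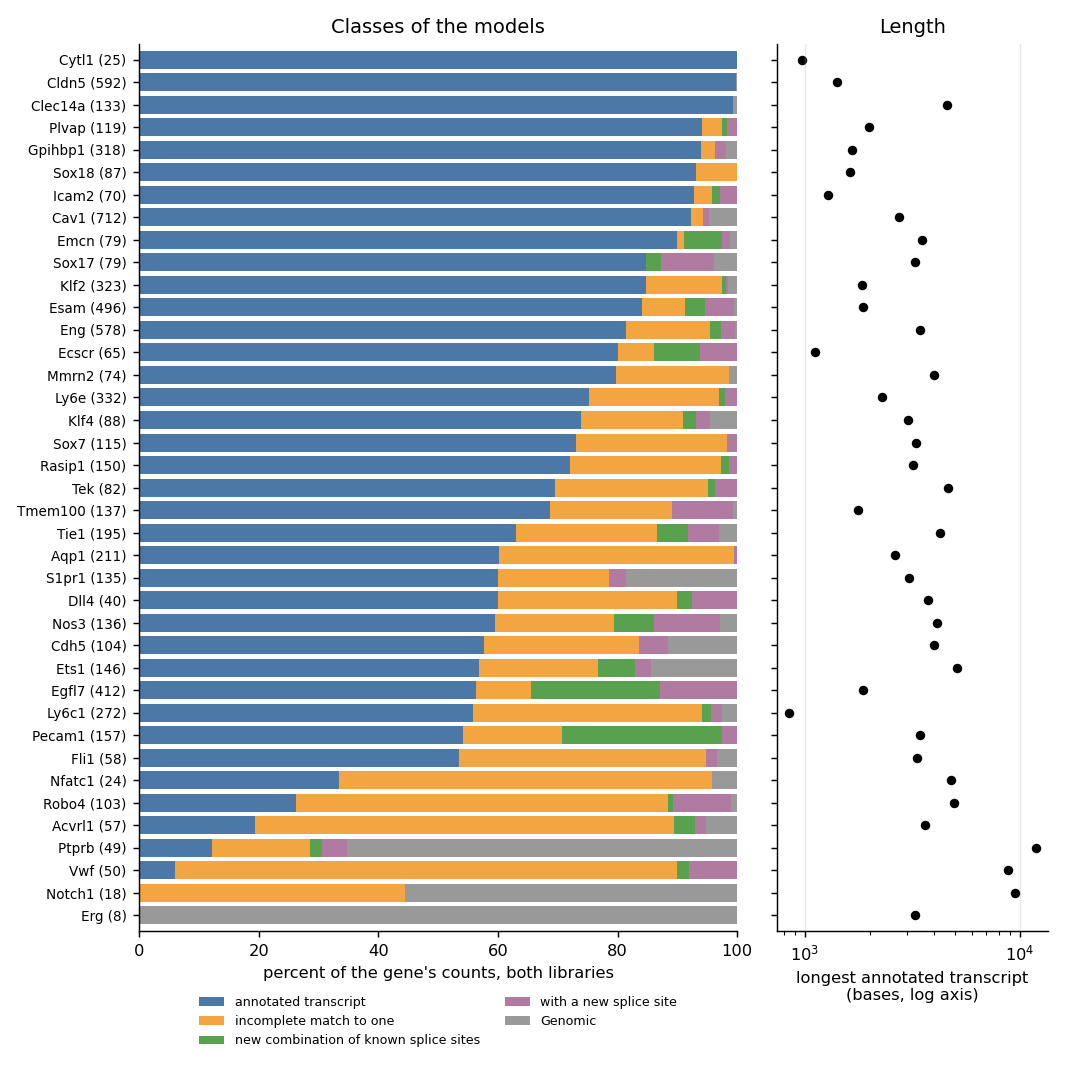
Left, the percent of each gene's counts, both libraries together, on each class of transcript model, with the number of counts in parentheses and genes ordered by their annotated share. Right, the length in bases of the longest annotated transcript on a log axis. Cytl1 at 974 bases has an annotated share of 100% and Notch1 at 9488 bases one of 0%.

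Reads confined to the last exon formed a recurring kind of model. Aqp1 had 43 counts in replicate 1 and 38 in replicate 2 on a single-exon model near its 3′ end, beside 75 and 52 counts on its 4-exon transcript. S1pr1 had 24 and 25, Ets1 23 and 18, Cdh5 19 and 12, Cav1 18 and 15, Sox7 16 and 13 and Ptprb 14 and 16 counts on such models. Each of the 7 genes had such models in both libraries. Their 5′ end was the same in both for Cav1 and Sox7 and differed for Aqp1, S1pr1, Ets1, Cdh5 and Ptprb. The class given to these models was not always the same in both libraries. Those of S1pr1 were Genomic in replicate 1 and incomplete matches in replicate 2, and those of Cdh5 and Ets1 the other way round. Counts split by class are therefore not comparable between the libraries for these 3 genes. In all, models with a 5′ end within 100 bases of an annotated start held 86.1% ± 1.3 (SD, n = 2) of the members' counts and 90.7% of those of all genes. Annotated models carry their annotated start by construction, and among the others the shares were 43.1% ± 3 and 52% ± 0.92.

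Alternative transcripts were compared between the libraries in 12 members that had 20 or more annotated counts in each. The share of the leading transcript differed in 0 of the 12 by Fisher's exact test with Benjamini-Hochberg adjustment over 2633 genes (0.038% of which passed), with 0 at an unadjusted p under 0.05 and a smallest p of 0.252. The splice sites and starts that follow were chosen after the models had been seen and carry no test. They rest on exact splice positions in the deposited models, and no source used here tells how alignments were corrected.

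Several members alternated between splice sites a few bases apart. Eng used 2 acceptors at the start of its second exon that differ by the 3 bases at chr2:32657516-32657518 (mm10, + strand). The form with these bases, as in Eng-201, had 185 and 191 counts and the form without them, as in Eng-205, 53 and 60. The longer form thus held 77.7% (71.9 to 82.9) and 76.1% (70.3 to 81.2) of the junction counts in replicates 1 and 2. The reference sequences (GENCODE M21 transcripts) across the junction are shown because the difference lies in the coding region and is a multiple of 3, with the extra bases in capitals.
Eng with the bases: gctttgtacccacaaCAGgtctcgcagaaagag
Eng without them: gctttgtacccacaagtctcgcagaaagag
Tek had the same kind of choice at a donor site, with 3 bases at chr4:94851875-94851877 (+ strand). Its counts with and without them were 20 and 16 in replicate 1 and 20 and 19 in replicate 2, so neither form led. The 3 bases are in Tek-203 and not in Tek-201.
Tek with the bases: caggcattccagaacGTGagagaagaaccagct
Tek without them: caggcattccagaacagagaagaaccagct
Robo4 used acceptors 21 bases apart at chr9:37410679-37410699 (+ strand), also in the coding region and a multiple of 3. The longer form had 25 and 18 counts and the shorter 30 and 21, or 45.5% (32 to 59.4) and 46.2% (30.1 to 62.8) with the extra bases.
Robo4 with the bases: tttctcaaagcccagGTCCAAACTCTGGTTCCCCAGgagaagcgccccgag
Robo4 without them: tttctcaaagcccaggagaagcgccccgag
Ly6e also alternated by 3 bases at an acceptor, chr15:74957777-74957779, with 82 and 85 counts with them and 44 and 46 without. In Eng, Tek, Robo4 and Ly6e the intervals of the libraries overlapped.

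Egfl7 had the most varied models. Its leading transcript Egfl7-202 had 103 and 89 counts. A donor near the 3′ end left out 39 coding bases (chr2:26592242-26592280, + strand) in 11 and 8 counts. Against these stood 180 and 149 counts with all 39, which is 94.2% and 94.9% of the counts of both forms. Outside these shares, another annotated donor kept only 8 of the 39 bases, a length that is not a multiple of 3, in 14 and 6 counts.
Egfl7 with the bases: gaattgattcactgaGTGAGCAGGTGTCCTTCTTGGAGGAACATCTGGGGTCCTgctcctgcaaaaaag
Egfl7 without them: gaattgattcactgagctcctgcaaaaaag
A second choice was at an acceptor not in the reference. It lengthened an exon by 99 bases at chr2:26591565-26591663 in 37 and 23 counts, while the annotated acceptor had 151 and 128. The unannotated site held 19.7% (14.3 to 26.1) and 15.2% (9.91 to 22) of the counts of both. Of these, 32 and 18 counts formed 1 model of 10 exons that matched between the libraries intron by intron. Between the replicates it was again classed differently, as holding a new splice site in replicate 1 and as a new combination in replicate 2.

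Pecam1 varied most at its cytoplasmic tail, the part inside the cell that binds signalling proteins. Exons are numbered here as in the annotated transcript of 16 exons, and 69 counts in replicate 1 and 82 in replicate 2 lay on models that span exons 11 to 16. Exon 14 has 57 bases (chr11:106671742-106671798, - strand), exon 15 has 23 (chr11:106662002-106662024) and exon 12 has 54 (chr11:106681032-106681085). They are shown since their presence separates the forms.
Pecam1 exon 12: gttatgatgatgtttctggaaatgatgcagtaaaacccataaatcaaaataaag
Pecam1 exon 14: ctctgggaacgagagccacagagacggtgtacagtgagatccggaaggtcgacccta
Pecam1 exon 15: atctcatggaaaacagatactct
Both exons 14 and 15 were present in 11 and 27 counts, exon 14 alone in 26 and 22, exon 15 alone in 9 and 9, and neither in 23 and 23. No form held a majority in either library. Exon 15 has a length that is not a multiple of 3, so its presence changes the reading frame of the last exon, whereas exons 12 and 14 keep it. The form with exon 15 alone uses a junction that is not in the reference. Exon 12 was left out in 7 and 18 counts, or 10.1% (4.18 to 19.8) and 22% (13.6 to 32.5), also through a junction not in the reference. The share with both exons was 15.9% (8.24 to 26.7) and 32.9% (22.9 to 44.2), with overlapping intervals.

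**Figure D4:**
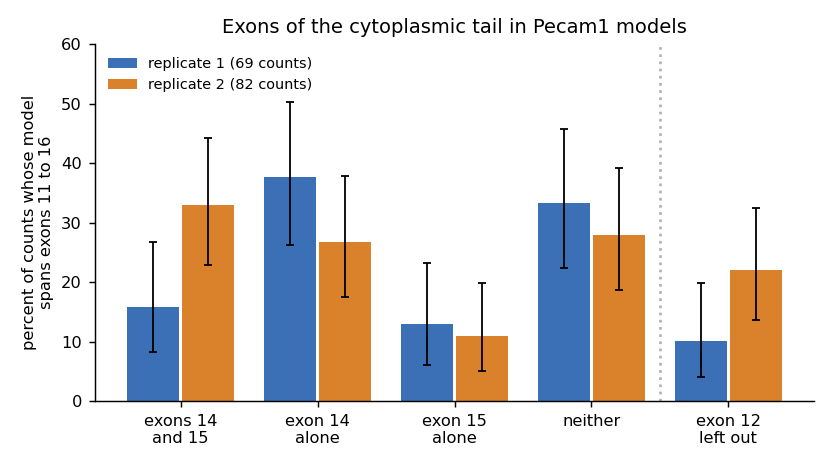
Bars give the percent of counts on Pecam1 models that span exons 11 to 16, 69 in replicate 1 and 82 in replicate 2, by which tail exons they hold, with 95% Clopper-Pearson intervals for counting error. The first 4 pairs of bars cover all counts but 1 in replicate 2, the last pair counts the models without exon 12, and the intervals of the libraries overlap in every pair.

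Cav1, Ly6c1 and Egfl7 have more than 1 start in RefSeq, and the models were assigned to a start when their 5′ end lay within 100 bases of it. Cav1 models began at chr6:17306335 in 233 and 244 counts, 67% of the gene, and at chr6:17307640 in 84 and 93, or 24.9%. The downstream start gives the 2-exon Cav1-202, which had 77 and 87 counts, against 219 and 235 of the 3-exon Cav1-201, the leading transcript. Of the counts of both starts the downstream one held 26.5% (21.7 to 31.7) in replicate 1 and 27.6% (22.9 to 32.7) in replicate 2. Ly6c1 began at chr15:75048837 in 85 and 63 counts, or 54.4%, and at chr15:75048663 in 59 and 52, or 40.8%. Most of the latter, 52 and 48, lay on a model of 3 exons classed as an incomplete match. For Egfl7 1 start carried nearly all: chr2:26583865 had 196 and 161 counts, or 86.7%, and the other RefSeq starts 6 and 8 counts over both libraries.

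**Figure D5:**
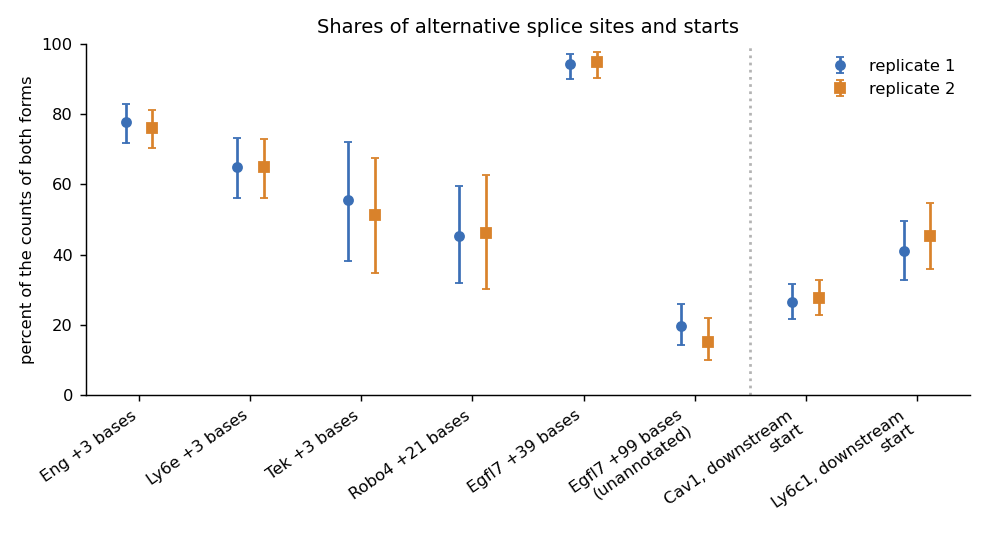
Percent of the counts of both forms that had the extra bases at a splice site (left of the dotted line) or the downstream start (right of it), as a circle for replicate 1 and a square for replicate 2, with 95% Clopper-Pearson intervals for counting error. Egfl7 kept its 39 bases in 94.2% and 94.9% of the counts of both forms drawn, which leave out another donor. Tek and Robo4 were near an even split, and the intervals of the libraries overlap in all 8 choices.

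The bases just before 4 of these starts are shown, 120 each from RefSeq (GRCm38.p6), because 2 of them are alternative starts of Cav1 and the others lead Egfl7 and Ly6c1. Capitals mark AGGAAG or its reverse complement, the core letters that ETS factors such as Ets1, Fli1 and Erg are known to bind.
Cav1 upstream start, chr6:17306215-17306334, + strand: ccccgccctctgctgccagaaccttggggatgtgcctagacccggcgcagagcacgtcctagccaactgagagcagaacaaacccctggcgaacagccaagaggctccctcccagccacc
Cav1 downstream start, chr6:17307520-17307639, + strand: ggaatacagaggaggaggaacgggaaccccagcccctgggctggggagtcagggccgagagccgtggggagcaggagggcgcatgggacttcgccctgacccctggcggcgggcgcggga
Egfl7 leading start, chr2:26583745-26583864, + strand: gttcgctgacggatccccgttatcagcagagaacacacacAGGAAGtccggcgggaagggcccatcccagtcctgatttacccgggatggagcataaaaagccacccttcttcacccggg
Ly6c1 upstream start, chr15:75048838-75048957, - strand: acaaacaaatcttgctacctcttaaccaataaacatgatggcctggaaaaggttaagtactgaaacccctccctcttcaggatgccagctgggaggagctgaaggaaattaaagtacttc
The Egfl7 stretch holds the letters once and the other 3 printed stretches not at all. The 120 bases before the downstream start of Ly6c1, which overlap annotated exons and are not printed, hold 2 overlapping matches. RefSeq windows of 300 bases, 250 before to 50 after a start, were at hand for 18 of the 39 members, 24 windows in all. AGGAAG, read on both strands, was in 12 of these 24, or 50%, and in 35.4% of all 32851 windows. For CGGAAG, the other ETS core searched, it was 1 of 24, or 4.17%, in Tie1, against 16.9%. CGGAAG shares 5 letters with AGGAAG, and no match counts for both. CCACCC, a KLF box, was in 9, or 37.5%, against 31.5%. ACAATG, the SOX core, was in 1 window against 12.6% of all, AGATAA of GATA factors in 2 against 11.2%, TGGGAA of RBPJ in 5 against 25.6%, TATAAA in 3 against 13.6%, and TGTTTAC of FOX factors in 0 against 3.65%. A match is letters in a window and not a bound site.

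The members lie on 16 chromosomes, and some are neighbours. Notch1 and Egfl7 are 63.4 kb apart on chr2 with 0 coding genes between them, and stood at 8.48 and 194 CPM. Fli1 and Ets1, both ETS factors, are 93.4 kb apart on chr9 with 0 coding genes between, and stood at 27.3 and 68.7 CPM. Both neighbours of the second pair were higher in replicate 2, and those of the first in replicate 1, and none of the 4 passed the test. Egfl7 overlaps the end of Agpat2, a lipid enzyme gene on the other strand with 134 and 140 counts, and Eng that of Fpgs with 9 and 17.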

How the data were processed

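The authors deposited whole-number read counts per transcript model for each library, with a transcript annotation that gives the other columns used, namely model positions, exon numbers and lengths. Per the file headers and notes, reads were aligned to mm10, annotated against GENCODE M21 and named by TALON. No source used here names the aligner, the tool versions or the filters. Spike-ins and new genes stayed out of the totals of annotated genes (1059016 of 1107678 counts in replicate 1 and 1064679 of 1110707 in replicate 2).

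Counts were summed per gene in Python 3.11.15 (scipy 1.17.1) and tested with a two-sided exact binomial test (at least 10 counts in both libraries together, Benjamini-Hochberg, threshold 0.05). edgeR 4.0.16 (TMM scaling, exact test with common dispersion) and DESeq2 1.42.0 (size factors) served as alternatives. With 1 library per replicate in 1 group, edgeR's quasi-likelihood test has no contrast to fit. The scripts were tested on simulated data. Log2 ratios use CPM plus 1. A count is worth 0.944 and 0.939 CPM, and a count of 0 allows 3 counts. Gene positions are those of GENCODE M21, and starts and upstream sequences those of RefSeq. Splice alternatives needed 5 or more counts on each junction over both libraries. All 39 members are named, with up to 3 of the highest transcripts each, and of other lists the 3 highest genes and those past the threshold, of which some are left unprinted. Members and gene lists were chosen with earlier results of these data known. Erg was not tested. Alternatives covered scaling, minimum counts, model classes, a trend on annotated transcript length, the pseudocount, start distance and leaving out a replicate.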

Additional observations from a re-analysis of the deposited data

Results flagged for a closer look

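Some counts lay on new genes that the deposited annotation places antisense to a member, a signal the comparisons above do not use. They were listed here where both libraries held more than the 3 counts that a count of 0 allows. Ets1 had 60 such counts in replicate 1 and 87 in replicate 2, as many as on Ets1 itself (60 and 86). Most of them, 51 and 65, lay on single-exon models from chr9:32755004 on, within the last exon of Ets1-201. Esam had 17 and 16 antisense counts against 233 and 263 of its own, and Egfl7 8 and 7 against 227 and 185. Pecam1 had 7 and 8, Ptprb 4 and 12, and Fli1 7 and 4. The members' own counts were 24 and 34 for Fli1 and 24 and 25 for Ptprb. How the strand of a read was assigned is not given in the sources used here, so antisense transcripts and reads of the member in the wrong orientation cannot be told apart.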

How the results depend on the processing

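No paired analysis was possible because the samples form 1 group and share no replicate number. No member passed as higher in replicate 1 under any of the 9 alternatives run, and as higher in replicate 2 there was 1, S1pr1, without Genomic models (log2 0.89, adjusted p = 0.0446; over its alternatives the adjusted p otherwise stayed above the threshold). Its 3′ model was Genomic in replicate 1 alone, so leaving out that class removed 24 counts from replicate 1 and 1 from replicate 2. Plvap came closest otherwise, with an adjusted p of 0.0512 under TMM scaling. The median of the 5 endocardial members was -0.67 with annotated transcripts alone, where fewer of the 5 could be tested, and -0.40 with the length trend removed. The members' share was 0.308% of all counts and 0.302% with annotated transcripts alone. With multi-exon models alone the annotated share was 78.3% and the start share 90.8%. Leaving out 1 replicate gave 0.321% to 0.322%, 74.9% to 76.3%, 85.2% to 87% and 39 members detected. Without Genomic models 38 members were detected, and with annotated transcripts alone 37. TMM moved the median log2 ratio of all genes from 0.08 to -0.001, and that of the members from 0.05 to -0.033 (-0.032 with DESeq2 size factors, -0.073 with the length trend removed). Of the members' log2 ratios, 10 genes changed sign under at least 1 alternative, in 22 cases, with none of them past the threshold. Under TMM and DESeq2 scaling these were Cldn5 (-0.021 and -0.020), Icam2 (-0.007 and -0.005), Ptprb (-0.029 and -0.028), Eng (-0.029 and -0.028), Cav1 (-0.008 and -0.007), Ly6e (-0.037 and -0.036) and Sox7 (-0.014 and -0.012). With the length trend removed they were Ptprb (-0.081), Eng (-0.083), Cav1 (-0.035), Ly6e (-0.048) and Sox7 (-0.065), and with annotated transcripts alone Pecam1 (-0.17), Tek (0.145) and Acvrl1 (-0.23). The other 313 values kept direction and side of the threshold. Low counts limit what could be seen: of the members, 5 lay at or under 20 CPM.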

Other observations

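Heart muscle and stroma lists were also compared between the libraries. Of 10 cardiomyocyte genes, all tested, 4 were higher in replicate 1 (Tnni3, Myl2, Pln and Nppa) and 2 in replicate 2 (Myh6 and Actc1), with 4.47% and 4.33% of counts. edgeR's exact test called only Nppa of these. With the length trend removed, Pln and Nppa alone passed the binomial test, both higher in replicate 1. Among 10 fibroblast genes Gsn alone passed, higher in replicate 1 with 2183 and 1729 counts, and the list held 0.743% and 0.711%. Dcn and Col1a2 also passed as higher in replicate 1 with the length trend removed. The epicardial list had 148 and 170 counts with 0 of 5 tested genes past the threshold, and of 8 tested macrophage genes Lyz2 alone passed (97 and 182 counts).

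Across the members 439 new multi-exon intron chains were seen, of which 131 were present in both libraries, in 33 genes. Most of the shared ones, 84, were incomplete matches in both. Models over 4000 bases held 8.07% of the members' counts and 102 counts lay on models over 5000 bases, most of them, 84, of Ets1.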
